A study of Mus musculus with 16 samples.

Results

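The genes described here are the histone genes that still carried an older Hist1 to Hist4 symbol in expression tables of mouse submandibular gland and were listed above 0 FPKM (fragments per kilobase of transcript and per library size) in at least 2 of 10 RNA libraries. Of 55181 genes, 9 had such a symbol and 5 met the rule: Hist1h2al, of the H2A type, Hist1h2bp and Hist1h2bq, of the H2B type, and Hist1h4m and Hist1h4n, of the H4 type. The rule therefore reached only the Hist1 group, with no H1 or H3 gene. A further 61 genes that RefSeq lists with an older Hist symbol were present under newer symbols such as H2bc4, so the 5 genes are a small part of the 70 histone genes of this naming and do not stand for replication-dependent histone genes as a whole. Just inside the rule, Hist1h4n was above 0 in 2 libraries. Just outside it, Hist1h2br was listed at 0.0840 FPKM in the first 6 h library and at 0 in the other 9, and Hist1h2an, Hist1h2ao and Hist1h2ap were listed at 0 in all 10.

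The glands came from wild-type mice aged 6 to 8 weeks. Unirradiated glands were taken at zeitgeber times ZT3, ZT9 and ZT15 (hours on the light cycle), and irradiated glands 6 h or 24 h after 5 Gy, with 2 libraries in each of the 5 groups. The labels describe ZT3 as the starting point but give no clock time for the irradiated glands. The comparisons with ZT9 at 6 h and with ZT3 at 24 h follow from that starting point and remain one pairing among several. Separate lists of CUT&Tag summits, the positions of strongest signal for DNA-bound Bmal1, Nr1d1 and Dbp, came from untreated glands, with 2 lists for each factor. The labels do not say whether libraries of a group came from separate animals, so p-values measure the spread between libraries. At ZT15, 6 h and 24 h, 1 library of each pair expressed Y-linked genes and the other did not. Those pairs did not come from 1 animal, and their spread includes any difference by sex. At ZT3 and ZT9 the spread may be technical.

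Replication-dependent histone genes supply the core histones that package new DNA during S phase. Most lie in clusters of near-identical copies, have no introns, and give mRNAs that end in a conserved stem-loop instead of a poly(A) tail, so protocols that select poly(A) capture them poorly. H2A pairs with H2B, and H4 with H3, in the nucleosome. The RNA libraries were made with an mRNA kit, and whether poly(A) was selected is not given in the sources used here. In whole glands, fewer cells of a type and less RNA per cell cannot be told apart.

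On chromosome 13, 4 of the genes lie together and the other stands apart, in coordinates of RefSeq's GRCm38.p6 annotation, the same build as mm10. Hist1h2bp (H2bc22, plus strand) spans chr13:21787483-21801561, Hist1h2bq (H2bc23, minus strand) chr13:21806412-21810199, Hist1h4m (H4c17, plus strand) chr13:21811746-21812150 and Hist1h4n (H4c18, minus strand) chr13:21831792-21832197. These 4 protein-coding genes fit within 44.7 kb. Hist1h2al is listed as H2af-ps2, a transcribed pseudogene at chr13:51200084-51203066, 29.4 Mb from the last gene of the cluster. The 2 H4 genes have short spans, of 405 and 406 bp, whereas the H2B spans of 14079 bp for Hist1h2bp and 3788 bp for Hist1h2bq are much longer than a lone histone coding sequence.

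Part of the cluster is a mirrored duplicate. Hist1h2bq and Hist1h4m start 1547 bp apart, and on the other arm Hist1h2br and Hist1h4n start 1546 bp apart. The promoter windows of Hist1h2bq and Hist1h2br, from 250 bases before to 50 bases after the start, were identical at 300 of 300 bases. Those of Hist1h4m and Hist1h4n matched at 298 of 299 bases when shifted by 1, whereas Hist1h2bp and Hist1h2bq matched at 134 of 298 (45.0%) when shifted by 2. Only a small shift of the whole window and no gap was allowed, so 45.0% may understate how alike the H2B windows are. Reads from such copies may not be assignable to 1 gene, so each gene's own level is uncertain for this pair of blocks. The windows are shown because they display this duplication and because 1 of them held CUT&Tag summits. They run 5′ to 3′ along each gene, at chr13:21787238-21787537 (plus) for Hist1h2bp, chr13:21810150-21810449 (minus) for Hist1h2bq, chr13:21811496-21811795 (plus) for Hist1h4m and chr13:21832148-21832447 (minus) for Hist1h4n, from RefSeq, with CCAAT and TATAAA, on either strand, in capitals.
Hist1h2bp: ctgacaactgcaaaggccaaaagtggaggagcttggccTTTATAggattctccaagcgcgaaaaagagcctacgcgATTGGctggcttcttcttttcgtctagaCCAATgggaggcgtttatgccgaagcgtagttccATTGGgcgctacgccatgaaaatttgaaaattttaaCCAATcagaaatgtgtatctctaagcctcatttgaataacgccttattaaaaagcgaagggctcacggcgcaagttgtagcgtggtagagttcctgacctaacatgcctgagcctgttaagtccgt
Hist1h2bq: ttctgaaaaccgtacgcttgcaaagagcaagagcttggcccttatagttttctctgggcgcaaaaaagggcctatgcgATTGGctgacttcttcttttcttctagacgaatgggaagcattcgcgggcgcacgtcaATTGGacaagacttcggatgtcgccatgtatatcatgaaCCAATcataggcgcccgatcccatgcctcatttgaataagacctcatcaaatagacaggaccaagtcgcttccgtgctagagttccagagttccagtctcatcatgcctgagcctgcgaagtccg
Hist1h4m: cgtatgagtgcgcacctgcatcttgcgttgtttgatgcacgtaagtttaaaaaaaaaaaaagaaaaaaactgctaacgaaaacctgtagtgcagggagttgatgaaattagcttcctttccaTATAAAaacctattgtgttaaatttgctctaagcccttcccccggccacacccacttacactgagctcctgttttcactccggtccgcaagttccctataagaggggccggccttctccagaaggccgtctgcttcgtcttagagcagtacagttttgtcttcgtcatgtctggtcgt
Hist1h4n: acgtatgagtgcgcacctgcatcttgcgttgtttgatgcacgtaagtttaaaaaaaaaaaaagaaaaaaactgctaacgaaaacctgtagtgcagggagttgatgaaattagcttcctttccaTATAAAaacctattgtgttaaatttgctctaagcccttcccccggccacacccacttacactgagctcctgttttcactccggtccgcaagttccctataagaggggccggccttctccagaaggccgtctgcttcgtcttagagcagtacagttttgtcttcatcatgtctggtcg

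CCAAT was in the H2B windows and not in the H4 windows, whereas TATAAA was in 1 H2B window and in both H4 windows, which are near-copies. CCAAT, a promoter element common in histone genes, occurred 4 times for Hist1h2bp, at 174, 146, 112 and 76 bases before the start, and 3 times for Hist1h2bq, at 172, 114 and 75 bases before it. Neither H4 window held CCAAT, which 37.9% of 27025 promoter windows of the same length held. The letters TATAAA occurred 128 bases before the start of Hist1h4m, 127 before that of Hist1h4n and, on the opposite strand, 212 before that of Hist1h2bp, against 14.2% of all windows with a match. The octamer ATTTGCAT (1.75% of all windows), the E-box CACGTG (7.24%) and the D-box TTATGNAA (3.52%) had no match in the 4 windows. AGGTCA, a core element bound by REV-ERB and other nuclear receptors, matched once, in Hist1h2bp, and in 16.0% of all windows. Both strands were searched and the motifs do not overlap each other.

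All 5 genes were low and mostly intermittent. Their summed FPKM ran from 0.184 in the first ZT3 library to 11.0 in the second, so the lowest and the highest library belonged to the same group. The ZT9 libraries had sums of 1.98 and 1.84 and the ZT15 libraries 3.44 and 4.28. Irradiated glands had 3.33 and 2.24 at 6 h, then 0.614 and 1.71 at 24 h. The 5 genes made up 0.255% to 10.0% of the summed FPKM of all 70 histone genes, and the highest share, in the second ZT3 library, went with 1 gene, Hist1h2al.

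**Figure D1:**
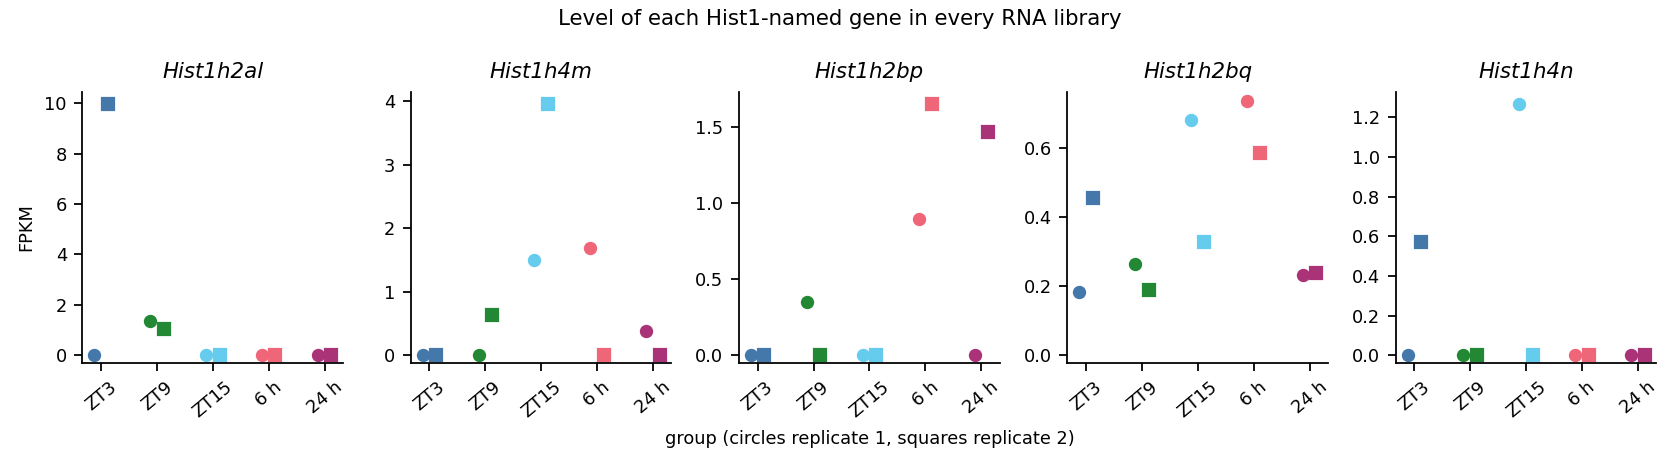
FPKM of each of the 5 Hist1-named genes in each library (vertical axes, linear and different for each gene), by group along the horizontal axis; each point is 1 library. Hist1h2bq is the gene above 0 in all 10 libraries, and the highest point, 9.97 FPKM, is Hist1h2al in the second ZT3 library.

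Hist1h2al, the H2A-type pseudogene, was listed above 0 in 3 libraries, all unirradiated. It stood at 0 and 9.97 FPKM in the ZT3 libraries and at 1.37 and 1.03 in those of ZT9, and was listed at 0 in both libraries of ZT15, of 6 h and of 24 h. The second ZT3 library alone set its level: the ZT3 group spanned the whole range of the other libraries. In that library the summed FPKM of T cell markers was 99.0 and of B cell markers 109, against 11.8 and 6.48 in the first ZT3 library. All 14 T cell markers were above 0 in both. All 12 B cell markers were above 0 in the second, and 3 of them were at 0 in the first. The highest T and B cell sums, 212 and 416, were in the second ZT15 library, where Hist1h2al was listed at 0. It was also at 0 in the second 6 h library, where these sums were 55.0 and 30.0. The part of these cells in the Hist1h2al value was not tested.

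Hist1h2bp, which encodes an H2B histone, was listed above 0 in 1 of 6 unirradiated and 3 of 4 irradiated libraries. The ZT9 libraries held 0.353 and 0 FPKM, the 6 h libraries 0.899 and 1.65, the 24 h libraries 0 and 1.47, and the 4 libraries of ZT3 and ZT15 were at 0. Both 6 h libraries were above all 6 unirradiated ones, while the 24 h libraries overlapped them. Hist1h2an, an H2A gene that starts 240 bp away on the opposite strand, was listed at 0 throughout.

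Hist1h2bq, also an H2B gene, was the only one of the 5 above 0 in every library. In unirradiated glands its FPKM was 0.184 and 0.455 (ZT3), 0.263 and 0.189 (ZT9), and 0.683 and 0.329 (ZT15). In irradiated glands it was 0.736 and 0.587 (6 h), then 0.231 and 0.237 (24 h). The 6 h libraries were above those of ZT3, ZT9 and 24 h and overlapped those of ZT15. It never reached 1 FPKM and so did not pass the filter of at least 1 FPKM in at least 2 libraries.

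Hist1h4m, an H4 gene, was highest at ZT15. The ZT3 libraries were both at 0, the ZT9 libraries at 0 and 0.625 FPKM, and the ZT15 libraries at 1.49 and 3.95. Irradiated libraries held 1.69 and 0 (6 h), then 0.382 and 0 (24 h). Both ZT15 libraries were above the other 4 unirradiated ones, but the first 6 h library lay between them. The higher ZT15 library was also the one with the highest summed FPKM of mitosis genes (183, against 24.5 in the first ZT15 library and 3.90 to 70.4 in the other 8) and of T and B cell markers. The first ZT15 library, with T and B cell sums of 11.5 and 4.78, still held 1.49 FPKM of Hist1h4m. The part of dividing or lymphoid cells in its level was not tested.

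Hist1h4n, the near-copy of Hist1h4m, was listed at 0.573 FPKM in the second ZT3 library and 1.27 in the first ZT15 library, and at 0 in the other 8. At ZT3 it was above 0 where Hist1h4m was at 0, and at ZT15 it was above 0 in the library with the lower Hist1h4m value. It did not pass the filter either.

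After scaling by depth, the values of Hist1h2bq lay near multiples of 0.5 of its lowest value. Each FPKM was multiplied by the library's relative depth, which ran from 0.690 in the first ZT9 library to 1.57 in the first 24 h library, and divided by the gene's lowest value above 0. The step reading rests on Hist1h2bq. For this gene, whose lowest such product was in the first ZT9 library, the other 9 products all lay within 0.1 of a multiple of 0.5, and the highest was 4.54. The largest distance from such a multiple was 0.0414. The same tally was 2 of 4 for Hist1h4m, 2 of 3 for Hist1h2bp, 1 of 2 for Hist1h2al and 0 of 1 for Hist1h4n. Windows of 0.1 on either side of every multiple of 0.5 take up much of the scale. These tallies therefore show no steps for the genes other than Hist1h2bq. Products for Hist1h4m were 1.00, 1.99, 7.32, 3.15 and 1.00 in the 5 libraries where it was above 0, and those of Hist1h2bp reached 7.40. Hist1h2al reached 10.7 in the second ZT3 library and stood at 1.00 and 1.05 at ZT9. Whether a step is 1 fragment or a share of a fragment placed on several copies is not known, so no counting interval is given.

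**Figure D2:**
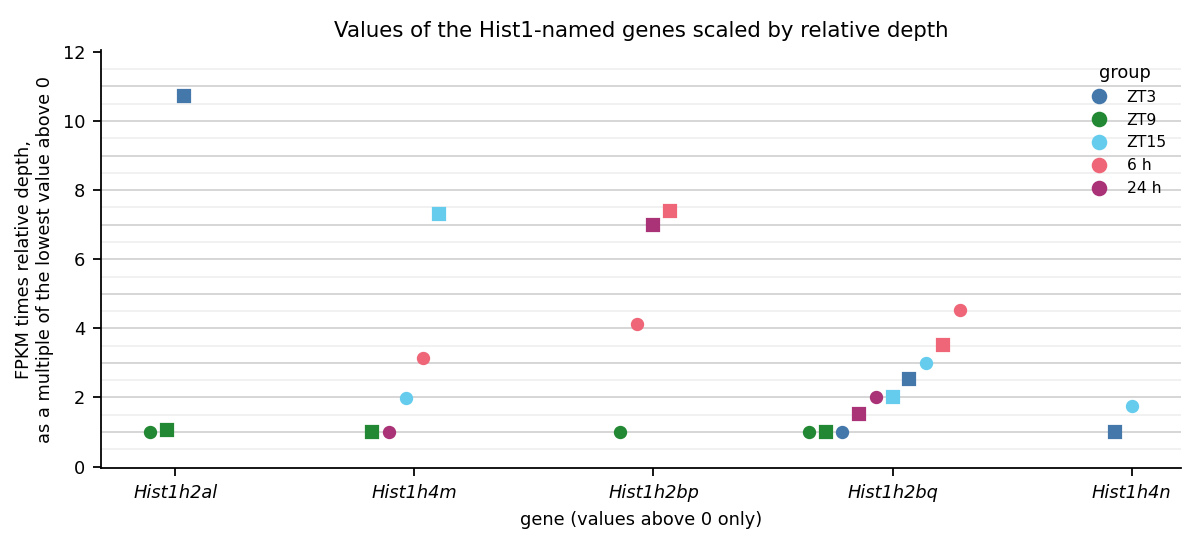
FPKM times the library's relative depth, divided by the gene's lowest such value above 0 (vertical axis, no unit), for each gene (horizontal axis) and library (1 point each; libraries at 0 are not drawn). Hist1h2bq lies near multiples of 0.5 up to 4.54, and the highest point is Hist1h2al at 10.7.

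Among the 70 histone genes ranked by mean FPKM, Hist1h2al was 15th (1.24), Hist1h4m 19th (0.815), Hist1h2bp 23rd (0.437), Hist1h2bq 24th (0.389) and Hist1h4n 33rd (0.184). The place of Hist1h2al rests on the second ZT3 library: without it, a setting chosen after seeing the data, its mean was 0.266 FPKM and its rank 30. The highest were H2bc4 at 28.1 FPKM and the linker histone gene H1f2 at 21.6. Of the 61 genes under newer symbols, 40 were above 0 in at least 2 libraries, 17 in all 10 and 0 FPKM was listed throughout for 12, with a median mean of 0.141 FPKM. The 5 genes were selected for being above 0 in 2 libraries and the 61 were not, so their medians are not compared.

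**Figure D3:**
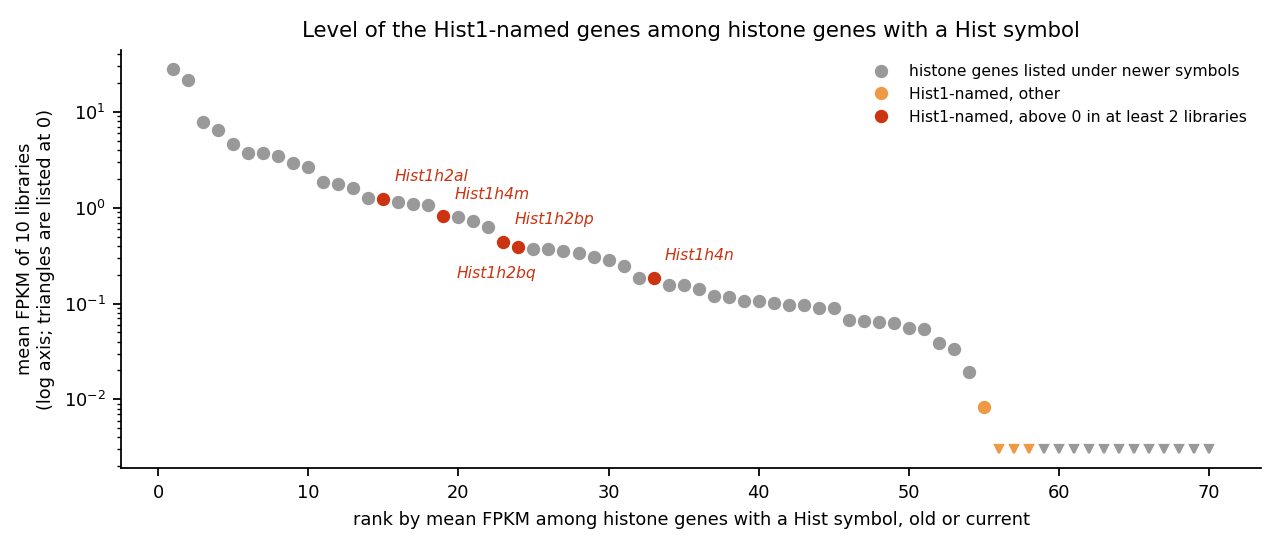
Mean FPKM over 10 libraries (vertical axis, logarithmic) of the histone genes with an older Hist symbol, by rank (horizontal axis); the 5 Hist1-named genes are named in red, other Hist1-named genes are orange, newer symbols grey, and triangles mark genes listed at 0 throughout. They take ranks 15 to 33, from 1.24 to 0.184 FPKM; Hist1h2al, at rank 15, is at rank 30 without the second ZT3 library.

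The first comparisons asked whether these genes differed after irradiation. None of the 3 genes that passed the filter was called in limma, fitted on log2(FPKM + 1) over 15161 genes and called at a Benjamini-Hochberg adjusted p under 0.05, a scale that understates differences of low genes. Hist1h2bp reached 1 FPKM only in irradiated libraries (1.65 and 1.47), and Hist1h2al only in unirradiated ones (9.97, 1.37 and 1.03). Each passed the filter only through groups where it was high, so the differences of these genes are descriptions. At 6 h against ZT9, 0.514% of all tested genes were called. The difference for Hist1h2bp was 0.95 (SE 0.43, 95% confidence interval -0.05 to 1.95, adjusted p = 0.434), for Hist1h4m 0.36 (SE 0.53, adjusted p = 0.817) and for Hist1h2al -1.13 (SE 0.91, adjusted p = 0.652). No unadjusted p was under 0.05 among the 3, against 12.2% of all tested genes. Hist1h2bq could be tested only without the filter, over 26712 genes, where its 6 h level differed from ZT9 by 0.44 (SE 0.15, limma adjusted p = 0.445). The 95% confidence interval of that difference, from 0.09 to 0.79, lay above 0. In the same fit the interval of Hist1h2bp was just above 0, from 0.0018 to 1.89. Neither gene was called there. The share of all 26712 genes with such an interval is not at hand, so these 2 intervals cannot be set against a background. In the filtered fit, 12.2% of genes had an unadjusted p under 0.05.

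At 24 h against ZT3, where 0.495% of tested genes were called, Hist1h2bp differed by 0.65 (SE 0.43, adjusted p = 0.458), Hist1h4m by 0.23 (SE 0.53, adjusted p = 0.843) and Hist1h2al by -1.73 (SE 0.91, adjusted p = 0.359). None of the 3 had an unadjusted p under 0.05, against 17.9% of all tested genes. The Hist1h2al value rests on the second ZT3 library. With the first ZT3 library left out it was -3.46 and passed the threshold (limma adjusted p = 0.0141), where the lone ZT3 library is assumed to vary like the libraries of the other groups. Hist1h2al was at 0 in both libraries of 3 of those groups. Over all settings its adjusted p ran from 0.0141 to 1, and with the second left out no difference remained, since all other ZT3 and 24 h values were 0.

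Between 24 h and 6 h, with 0.0198% of tested genes called, Hist1h2bp differed by -0.51 (SE 0.43, adjusted p = 0.548) and Hist1h4m by -0.48 (SE 0.53, adjusted p = 0.654), while Hist1h2al was listed at 0 in all 4 libraries. None of the 3 had an unadjusted p under 0.05, against 19.4% of all tested genes. Without the filter Hist1h2bq differed by -0.43 (limma adjusted p = 0.269). The change at 24 h against ZT3 minus the change at 6 h against ZT9 was -0.60 for Hist1h2al, -0.13 for Hist1h4m and -0.30 for Hist1h2bp, with adjusted p = 0.891, 0.966 and 0.885, and 0.0198% of tested genes called. The intervals were wide: for Hist1h2bp the difference of changes ran from -1.71 to 1.12. That of Hist1h2bq, in the fit without the filter, was -0.53 (limma interval -1.02 to -0.03, adjusted p = 0.557) and was not called. The share of all genes with such intervals in that fit is not at hand.

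**Figure D4:**
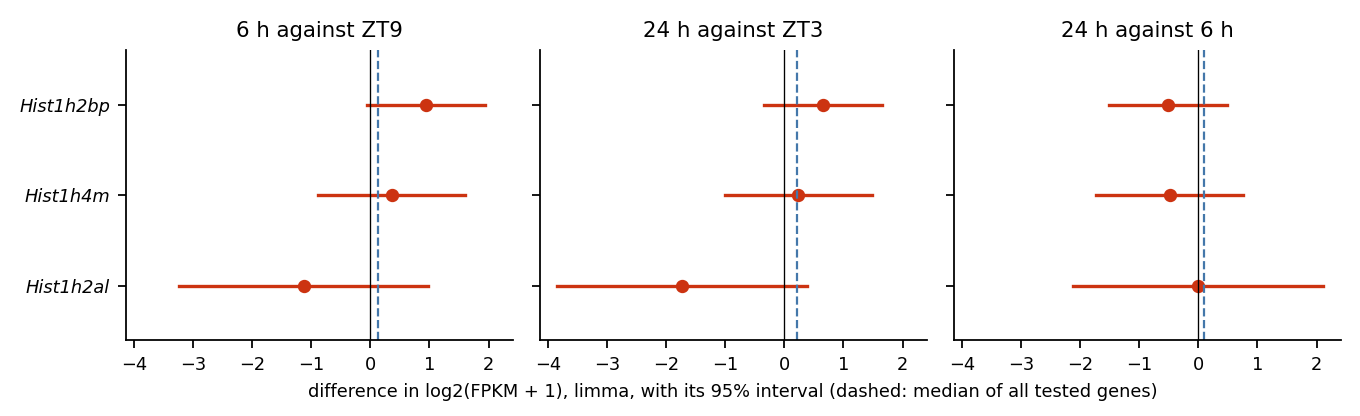
Difference in log2(FPKM + 1) with its 95% confidence interval (horizontal axis) for the 3 genes that passed the filter, in 3 comparisons. Points are limma estimates over 10 libraries. At 6 h against ZT9, 24 h against ZT3 and 24 h against 6 h every interval crosses 0. ZT15 against ZT3 is not drawn: there the limma interval for Hist1h4m ran from 0.57 to 3.06, with an adjusted p of 0.313.

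The second set of comparisons asked whether the genes differed over the control times. None of the 3 was called in limma's F test over ZT3, ZT9 and ZT15, where 0.0198% of tested genes were. Hist1h4m had an unadjusted p of 0.0226 in that limma test, with an adjusted p of 0.314. Of all tested genes, 13.1% had an unadjusted p under 0.05 in it. Its level differed by 1.81 between ZT15 and ZT3 (SE 0.53, adjusted p = 0.313, 0.0198% called) and by 1.46 between ZT15 and ZT9 (SE 0.53, adjusted p = 0.665, 0% called). Adjusted p for the F test was 0.549 for Hist1h2al and 0.912 for Hist1h2bp. Between ZT9 and ZT3, with 0.0066% called, the 3 differences were -0.60 for Hist1h2al, 0.35 for Hist1h4m and 0.22 for Hist1h2bp.

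Several features of the libraries moved with these groups. The tables fell into 2 gene orders, 1 for ZT3 and irradiated glands and 1 for ZT9 and ZT15. A comparison of 6 h or 24 h with ZT9 crosses them, and that difference in table cannot be told apart from irradiation. ZT9 against ZT3, ZT15 against ZT3 and the F test over the control times cross them too. In those, the difference in table cannot be told apart from time, also for Hist1h4m. Within 1 gene order, 6 h against ZT3 gave 1.17 for Hist1h2bp (SE 0.43, adjusted p = 0.272, 0.792% called). None of the 3 was called either at 6 h against the mean of the control times (1.02% called), where Hist1h2bp differed by 1.09, at 24 h against ZT9 (5.11% called), where it differed by 0.43, or at 24 h against that mean (5.55% called), where it differed by 0.58. The labels give no sex, and the libraries were mixed: Y-linked genes were present in 5 and listed at 0 in the other 5, where Xist was high. Both ZT3 libraries had Y-linked expression and both ZT9 libraries had none, so sex and time cannot be told apart between ZT9 and ZT3, while ZT15, 6 h and 24 h each held 1 library of either kind. Of the 4 libraries with Hist1h2bp above 0, the first 6 h library had Y-linked expression and the other 3 had none. Total FPKM ran from 791786 to 1174465 and genes above 0 from 19195 to 21781. The 15 submandibular gland markers were in the tables with a summed FPKM from 137697 in the first 24 h library to 589183 in the first ZT9 library. Some libraries stood apart in them: Muc19 was at 0.274 FPKM in the second ZT9 library and between 515 and 2863 in the others, and Prol1 was listed at 0 in the first 24 h library alone.

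The lists of genes that encode, process or deposit histones held few calls, and which ones depended on the control time. At 6 h against ZT9, 24 h against ZT3 and 24 h against 6 h, 0 of 17 histone mRNA processing genes, 0 of 20 histone chaperone genes, 0 of 26 S phase genes, 0 of 17 mitosis genes, 0 of 12 replacement histone genes, 0 of 6 histone genes with known polyadenylated forms and 0 of 20 histone genes under newer symbols rose or fell. With 0.514%, 0.495% and 0.0198% of all tested genes called, counts of 0 in lists of this size are near the background. At 24 h against ZT9, where 5.11% of all tested genes were called, Srrt and Casp8ap2 of the processing list rose by 0.83 and 1.26 on the log2 scale, the chaperone Atrx rose by 1.67, and the H3 genes H3c15 and H3c14 fell, with differences of -1.72 and -1.86. Against the mean of the control times at 24 h, Srrt, Casp8ap2, H3c15 and H3c14 were called in the same directions and Atrx was not. Both of these comparisons cross the 2 gene orders, which cannot be told apart from irradiation there. None of these genes was called at 24 h against ZT3, which shares its gene order with 24 h. Median differences of the newer-symbol genes were 0.31, -0.16 and -0.50, beside 0.12, 0.21 and 0.10 over all genes tested. Those of the 3 Hist1-named genes, 0.36, 0.23 and -0.48, were each the value of 1 gene, Hist1h4m. The 3 genes ran from -1.13 to 0.95, from -1.73 to 0.65 and from -0.51 to 0, so their median does not describe them as a group. Mitosis genes had medians of 0.22, -0.65 and -1.34. Of 9 p53 arrest genes, 5 rose at 6 h and 3 at 24 h, among them Cdkn1a, the p21 inhibitor of cyclin-dependent kinases, by 4.83 and 4.57 and Ccng1 by 2.96 and 2.68 on the log2 scale. Of 6 small RNAs without a poly(A) tail, Rn7s1, a signal recognition particle RNA, rose by 3.20 at 24 h against ZT3. It was also called, and higher, at 6 h against ZT3 and at 24 h against ZT9 and the mean of the control times, and none of the 6 was called at 6 h against ZT9. The summed FPKM of 19 such RNAs ran from 2.64 in the first ZT3 library to 36.7 in the second 24 h library, and was 8.32 in the second ZT3 library, where Hist1h2al was highest. The part of tailless RNA capture in the Hist1-named values was not tested.

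The CUT&Tag lists asked which starts lay near clock factor signal. Of the 4 genes with an annotated start, Hist1h2bp alone had a summit within 1 kb, in 3 of 6 lists: Bmal1 list 1, Nr1d1 list 2 and Dbp list 1. The summits lay 114, 146 and 144 bases before its start, within the window printed above that holds 4 CCAAT matches. The divergent start of Hist1h2an shares this stretch, and the same summits lay 126, 94 and 96 bases from it, so those of Nr1d1 and Dbp were nearer to Hist1h2an. By the authors' own score they ranked 9031 of 30977, 12374 of 38310 and 21548 of 49235. These 3 lists are the longest for each factor. In the shorter lists, with 19699, 9584 and 10324 summits, the nearest summit to Hist1h2bp was 874, 264 and 158 kb away, so the 2 lists of each factor differed at this start. No list had a summit between the first and the last gene of the cluster, while the 80 kb before it held 9, 7 and 11 summits in the 3 long lists and 0 in each short one.

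One start in 4 is to be read against 33.3%, 35.4% and 36.6% of all 27025 gene starts in the 3 long lists, and 36, 37 and 39 of the 54 newer-symbol histone starts (66.7%, 68.5% and 72.2%). The short lists of Bmal1, Nr1d1 and Dbp had a summit within 1 kb of only 3253, 1508 and 3149 of the 27025 starts. They had one near 2, 1 and 5 of the 54 newer-symbol starts. A count of 0 in 4 starts is therefore near the background of the short lists. The nearest summit to Hist1h2bq was 22.8 to 896 kb away over the 6 lists, to Hist1h4m 24.4 to 898 kb and to Hist1h4n 20.2 to 918 kb. Hist1h2al had its nearest summit 5.80 to 72.5 kb from its annotated span. How reads that match several copies of a duplicated block were treated is not given in the sources used here. All 6 lists are from untreated glands, and no control list was used here.

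**Figure D5:**
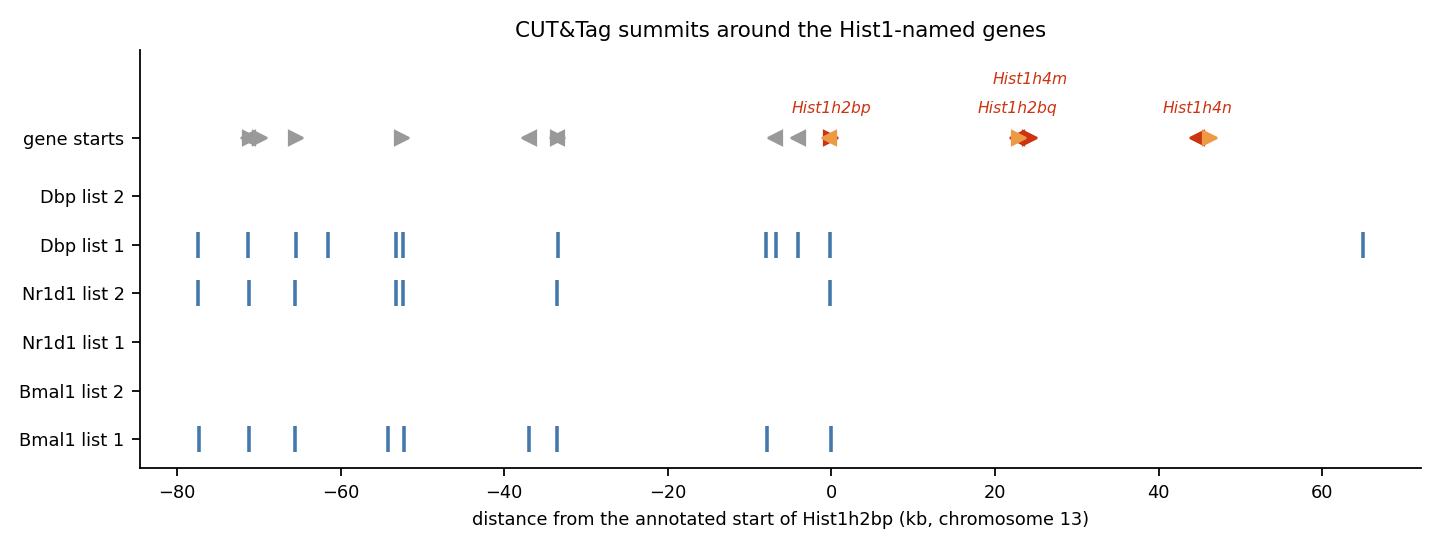
Summits of the 6 CUT&Tag lists around the cluster, by distance in kb (horizontal axis), 1 row for each list (each bar is a summit), with gene starts as triangles pointing along the gene (red, the 4 genes above 0 in at least 2 libraries; orange, other Hist1-named genes; grey, newer symbols). The 3 long lists have a summit just before the start of Hist1h2bp and none within the cluster, and the 3 short lists have none across the window.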

How the data were processed

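RNA from 10 libraries and CUT&Tag from 6 were used. The deposited RNA values are FPKM per gene, per the labels' protocols. The deposited CUT&Tag files list 1-base summits with a score with no stated scale, caller or control, so the score only ranked summits within a list. The submitters' processing notes name HISAT2, Bowtie2, SAMtools, Cufflinks and the build mm10, without roles. Of 55398 entries per file, 217 with a repeated symbol were left out.

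Genes with at least 1 FPKM in at least 2 libraries (15161) were fitted with limma 3.58.1 (R 4.3.3) on log2(FPKM + 1), with a mean per group, an intensity trend and 5 residual degrees of freedom. Tests are two-sided, with Benjamini-Hochberg adjustment over all genes fitted, and calls need an adjusted p under 0.05. No count is given, so absolute depth is unknown. Relative depth is the commonest ratio between libraries among genes below 0.5 FPKM. The fit was tested on simulated data. Python 3.11.15 was used for the rest.

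Every gene meeting the rule is given by library, and of other lists the counts and at most 4 genes with the smallest p. Genes and lists were chosen with earlier results of these data known.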

Additional observations from a re-analysis of the deposited data

How the results depend on the processing

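No Hist1-named gene was called under the pseudocount of 0.1, no filter, the Y-linked term, median-of-ratios scaling, quantile normalization, other control times or a fit of the compared libraries alone. Distances of 250 bp or 5 kb left the summit counts of the 4 genes as they were at 1 kb. Leaving out 1 library gave 0 to 1 called at 24 h against ZT3, the 1 being Hist1h2al without ZT3 replicate 1, and 0 in the other comparisons. The median difference at 6 h against ZT9 was 0.36 and ran from -0.35 to 0.71 with 1 library left out. In the main fits this median was the value of 1 gene, Hist1h4m. At 24 h against ZT3 it was 0.23, 1.14 with a pseudocount of 0.1 and -0.089 without the filter. At 24 h against 6 h it was -0.48, -0.95 with a pseudocount of 0.1, and -0.48 to 0 with 1 library left out. The log2 ratio of summed FPKM at 24 h against ZT3 was -2.27, 0.94 without Hist1h2al, and -3.24 to 2.66 with 1 library left out. A replicate block left the number of called genes at 0. Deviations of replicate 1 from its group mean correlated from -0.14 to 0.47 over 10 pairs of groups, 4 of them over 0.1. By such deviations, 8 of 10 libraries correlated best with a library of their own number. The 2 libraries of a group mirror each other in this measure, so they always give the same answer and do not count separately. It is at most a weak hint from the data and not the design. Without ZT3 replicate 2, a setting added after seeing the data, Hist1h2al moved from rank 15 to 30 by mean FPKM. Absolute depth is unknown, and the cause of these shifts was not tested.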
